A study of Mus musculus with 4 samples.

Results

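Zfp42, Fbxo15, Spp1, Dppa5a, Dppa2 and Dppa4 are marker genes of mouse embryonic stem cells. The peaks described here are those of the deposited Pcbp1 ChIP-seq peak lists whose summit lay within 50 kb of the body of any of these 6 genes in the mouse build GRCm38 (mm10). By this rule 0 of 3494 EpiLC peaks and 20 of 12132 Naive peaks were members. Of the 20 Naive peaks, 4 lay near Zfp42, 3 near Fbxo15, 5 near Spp1 and 7 near Dppa5a, and 1 lay near both Dppa2 and Dppa4, which are neighbours. The genes were chosen by name, from markers of embryonic stem cells, with earlier results of these lists known.

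ChIP-seq recovers the DNA fragments that crosslink with a protein, here Pcbp1, a poly-C-binding protein with KH domains that binds RNA and DNA. The primed state, epiblast-like cells (EpiLC), was made from naive E14 Tg2a mouse embryonic stem cells over 48 hours on fibronectin in N2B27 with 12 ng/ml bFGF, 20 ng/ml Activin A and 1% KOSR. The naive cells were the same line after 3 passages in 2i-LIF-N2B27, which holds 1 uM of the MEK inhibitor PD0325901 and 3 uM of the GSK3 inhibitor CHIR99021. Each state had 1 Pcbp1 ChIP library, made with 12 ug of antibody from the same amount of chromatin, and 1 input library, for which no peaks are used here, so all values come from a single cell line with no replicate. No test between the states was possible, no p-value is given for one, and the peak lists hold no expression by which the labelled states could be checked.

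The 6 genes belong to the group of transcripts that mark the undifferentiated state. Zfp42, also called Rex1, encodes a zinc finger protein related to Yy1, and its loss is a standard sign of exit from naive pluripotency. Fbxo15 encodes an F-box protein and is a known target of Oct4 and Sox2. Spp1 encodes the secreted phosphoprotein osteopontin. Dppa5a, also called Esg1, encodes a small protein with a KH domain. Dppa2 and Dppa4 encode SAP-domain proteins that bind chromatin as a pair and are known to act on genes of the early embryo.

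Promoter sequence in RefSeq's table for GRCm38.p6 was matched for Zfp42 and Spp1, with 1 and 2 transcript starts, and these are the 2 members whose transcript strand was known here. Each stretch runs from 250 bases before the start to 50 after it. The Zfp42 stretch is shown because a Naive summit fell inside it, and the stretch at the first Spp1 start because Naive peaks lay on either side of it and none over it. Capitals mark the matches to 4 short motifs searched on both strands, namely CCCTCC (C-rich), AAGATGG (part of the Yy1 and Rex1 site), TTTGCAT (part of the octamer bound by Oct4) and ACTACAA (part of the Zfp143 site). Zfp42 lies on the minus strand and its stretch at chr8:43306960-43307259, and Spp1 lies on the plus strand with its stretch at chr5:104434861-104435160.
Zfp42: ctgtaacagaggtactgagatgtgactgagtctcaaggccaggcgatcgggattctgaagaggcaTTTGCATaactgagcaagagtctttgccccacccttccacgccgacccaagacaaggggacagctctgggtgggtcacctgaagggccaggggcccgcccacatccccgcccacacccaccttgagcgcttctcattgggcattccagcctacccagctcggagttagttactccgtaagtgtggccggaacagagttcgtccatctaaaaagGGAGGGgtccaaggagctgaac
Spp1: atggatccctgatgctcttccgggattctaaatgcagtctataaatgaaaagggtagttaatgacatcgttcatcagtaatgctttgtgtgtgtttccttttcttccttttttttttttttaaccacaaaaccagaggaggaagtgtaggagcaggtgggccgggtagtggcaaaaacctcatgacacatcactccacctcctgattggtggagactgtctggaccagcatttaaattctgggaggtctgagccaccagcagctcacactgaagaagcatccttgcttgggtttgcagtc
In the Zfp42 stretch, counted from 1 at its 5′ end, the Naive summit fell at base 40 and TTTGCAT stood at bases 66 to 72. The letters GGAGGG at bases 279 to 284 are CCCTCC on the other strand. The printed Spp1 stretch held none of the 4 motifs, while that of the second Spp1 start, chr5:104435942-104436241, not printed and under no peak, held TTTGCAT on the other strand at bases 41 to 47. Of 32851 promoters in the table, 39.2% held CCCTCC, 6.34% AAGATGG, 4.63% TTTGCAT and 3.24% ACTACAA. Among the 731 promoters under an EpiLC peak and the 3427 under a Naive peak, CCCTCC stood in 50.1% and 41.2%, AAGATGG in 8.07% and 9.66%, TTTGCAT in 3.28% and 3.59%, and ACTACAA in 3.83% and 7.03%. GC content was 57.7% in the Zfp42 stretch and 45.3% in the printed Spp1 stretch, beside a median of 52.7% over all promoters, 60.3% over those under an EpiLC peak and 60.0% over those under a Naive peak.

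No EpiLC peak lay within 50 kb of any of the 6 genes, while each of the 6 had a Naive peak there. Among all 21887 protein-coding genes, 26.3% had an EpiLC peak within 50 kb and 58.1% had a Naive peak, and 35.7% had a Naive peak and no EpiLC peak. With most genes lacking an EpiLC peak at that distance, a count of 0 of 6 is near the background and is not by itself a result about these genes. The number of Naive peaks per gene was less common. At least 7, the number at Dppa5a, lay near 2.07% of genes, at least 5, the number at Spp1, near 6.37%, at least 4, the number at Zfp42, near 11.0%, and at least 3, the number at Fbxo15, near 19.6%. Dppa2 and Dppa4, with 1 peak each, were at the median of all genes. At least 7 Naive peaks together with no EpiLC peak, as at Dppa5a, occurred at 0.480% of genes, or 105 of the 454 with at least 7. These cuts are the members' own counts, so the shares describe the genes and test nothing.

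**Figure D1:**
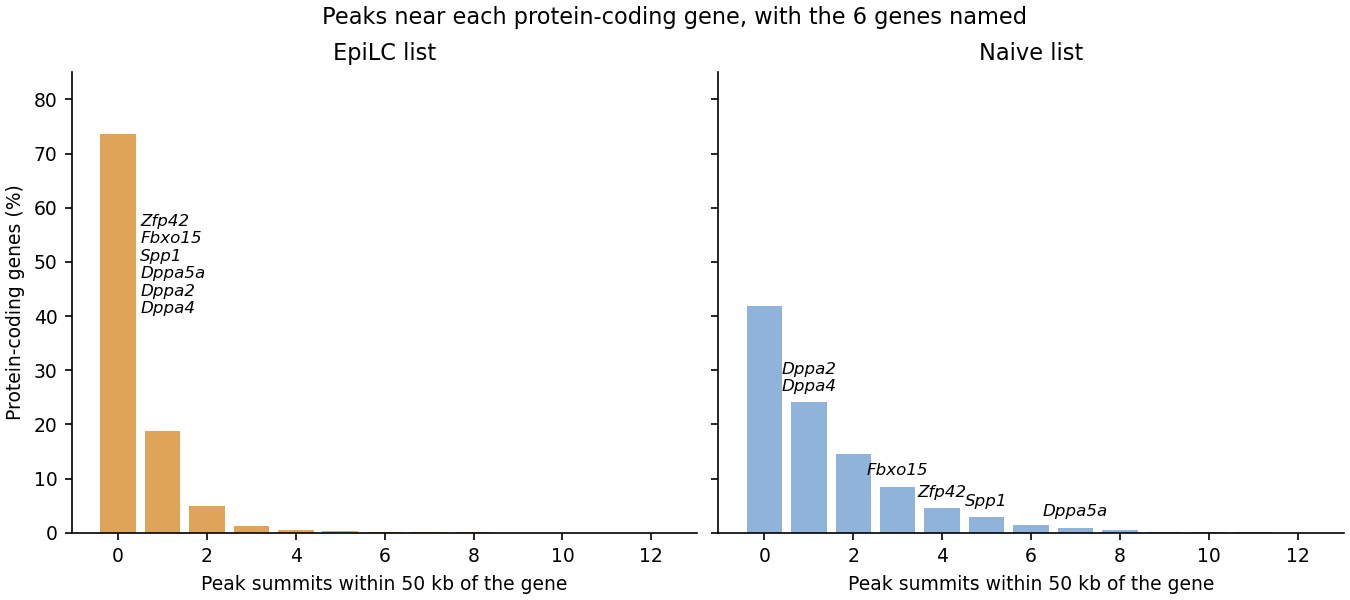
Share of all protein-coding genes (percent, vertical axis) by the number of peak summits within 50 kb of the gene (horizontal axis), in the EpiLC list (left) and the Naive list (right); 1 gene in EpiLC and 20 in Naive with over 12 summits are not drawn. All 6 genes stand at 0 in EpiLC, and in Naive they range from 1 (Dppa2 and Dppa4) to 7 (Dppa5a).

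The windows of the 6 genes together covered 602 kb and held no EpiLC peak and 33.2 Naive peaks per Mb. Over the windows of all protein-coding genes, merged to 1687 Mb, the density was 1.67 EpiLC and 6.13 Naive peaks per Mb. The member peaks lay close together. The median distance from a member summit to the next Naive summit was 1.72 kb, against 21.8 kb over all Naive peaks, and 15 of the 20 had another within 10 kb, as did 38.2% of all Naive peaks. The cluster at Dppa5a placed 7 summits in 17.8 kb, that at Spp1 5 in 25.2 kb and that at Fbxo15 3 in 19.1 kb.

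**Figure D2:**
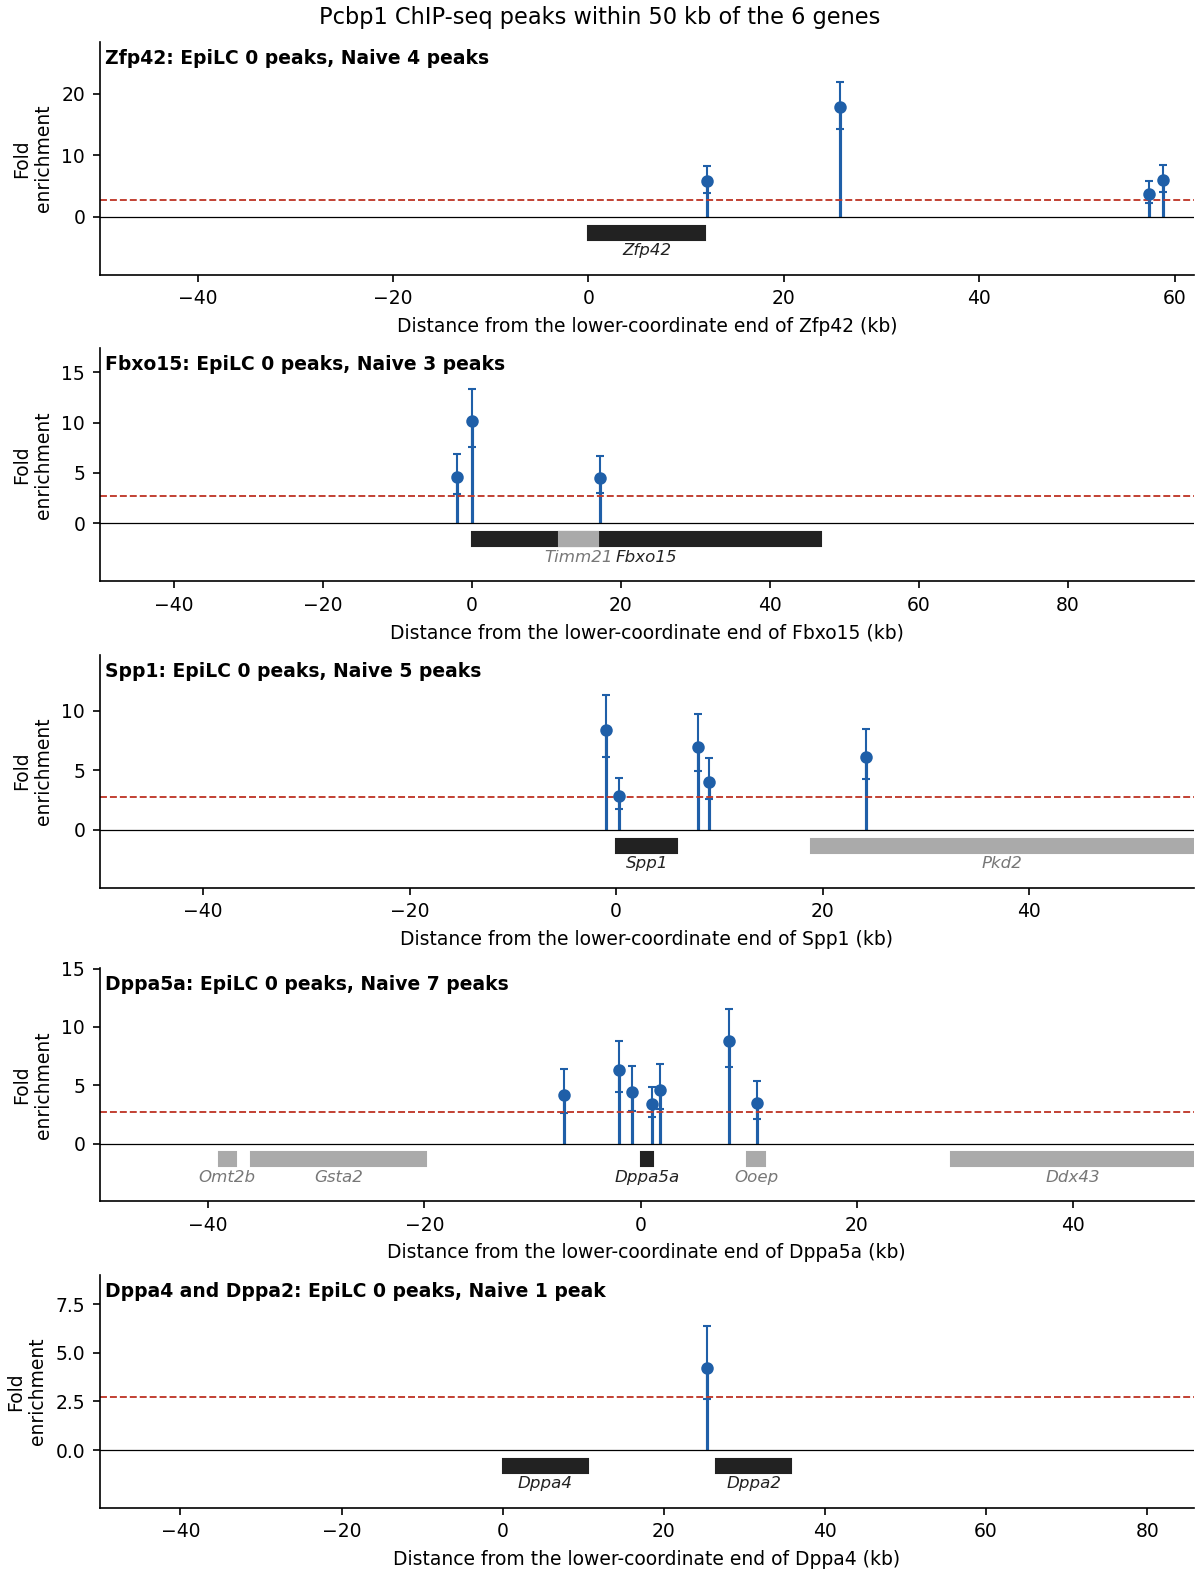
Fold enrichment of each Naive peak (vertical axis; bars, 95% Poisson counting intervals) by distance of its summit from the lower-coordinate end of the gene (kb, horizontal axis); black boxes are the 6 genes, grey boxes other protein-coding genes and the dashed line the EpiLC call limit of 2.73. The 3 Fbxo15 peaks, the 5 Spp1 peaks and the 7 Dppa5a peaks gather at or around the gene, while the Zfp42 peaks lie on 1 side of it and the tallest, at 17.8, stands 13.8 kb away.

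The strongest of the 20 peaks lay upstream of Zfp42 and not at its start. Fold enrichment is the height of the read pileup at the summit over the caller's background, as the authors deposited it. The intervals given for folds are 95% Poisson intervals of the pileup that cover counting error only. The peak at chr8:43320539-43321328, with its summit in no gene of the RefSeq table used, had a fold of 17.8 (14.3 to 21.9) from a summit pileup of 88 reads over a background of 4.004. Its summit stood 13.8 kb before the Zfp42 transcript start, and it ranked 25 of the 12132 Naive peaks by fold. The peak at the start itself, chr8:43306716-43307464, had a fold of 5.79 (3.92 to 8.29), with its summit 211 bp before the start, and covers the whole stretch printed above. The intervals of these 2 peaks did not overlap. The other 2 Zfp42 peaks lay 45.4 and 46.9 kb upstream, at chr8:43352179-43352536 with a fold of 3.80 (2.33 to 5.88) and at chr8:43353661-43354114 with 5.98 (4.07 to 8.50).

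All 4 Zfp42 summits lay on the 5′ side of the gene, and none lay within its body or beyond its 3′ end. The group stood alone in the Naive list. From its outermost summits the next Naive summits were 1454 kb away towards lower coordinates and 608 kb towards higher ones. The EpiLC peak nearest to Zfp42 was 1631 kb from the gene, in Fat1, a cadherin gene, at chr8:44937435-44937694 with a fold of 3.08 (2.28 to 4.09), and 4.55% of protein-coding genes lay farther from any EpiLC peak. For the other members this share was ordinary, from 27.2% for Spp1 to 60.5% for Dppa5a. The median distance to the nearest EpiLC peak was 226 kb for the 6 genes. Over all protein-coding genes it was 182 kb (quartiles 45.2 and 494 kb).

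Fbxo15 had its strongest peak at its lower-coordinate end. This Naive peak, chr18:84934058-84935098, was 1041 bp wide and reached a fold of 10.2 (7.62 to 13.4), with a pileup of 50 and a summit 35 bp outside the annotated end, and 97.7% of the Naive list had a lower fold. A second peak lay 2023 bp outside the same end, at chr18:84932384-84932616, with a fold of 4.60 (2.95 to 6.86). The third, chr18:84951369-84951977, had a fold of 4.53 (2.97 to 6.65) and lay within the Fbxo15 body, but its summit was also within 1 kb of an end of Timm21, a gene of the mitochondrial protein import machinery that lies inside Fbxo15. Whether it belongs to Fbxo15 or to Timm21 cannot be told from the lists. No EpiLC peak lay closer to Fbxo15 than 249 kb, where one of fold 4.56 (3.41 to 5.98) lay at chr18:84685800-84686028.

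Spp1 had peaks before its start and beyond its 3′ end. The strongest, chr5:104433946-104434613, had a fold of 8.39 (6.08 to 11.3), with its summit 968 bp before the annotated start. A weak peak 246 bp inside the gene, chr5:104435241-104435515, had a fold of 2.85 (1.77 to 4.37), the lowest of the 20, over a background raised 1.50 times above the genome-wide level. The edges of these 2 peaks lay 248 bp before and 81 bp after the stretch printed above, which neither covered. Past the 3′ end, summits at 2032 and 3066 bp had folds of 6.99 (4.90 to 9.69) and 4.05 (2.60 to 6.04). The fifth, at 18.3 kb, had 6.10 (4.26 to 8.50) and lay in the body of Pkd2, which encodes the polycystin-2 cation channel. The nearest EpiLC peak was 453 kb from Spp1, with a fold of 2.69 (2.21 to 3.24).

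Dppa5a, the shortest of the genes at 1148 bp, had the most peaks. Its strongest was not at the gene. The peak chr9:78374369-78375413, with its summit 6995 bp beyond the upper-coordinate end, had a fold of 8.80 (6.58 to 11.6) and a width of 1045 bp, the widest of the 20. This summit was nearer to Ooep, a gene of the oocyte with a KH domain, at 1709 bp, and the lists do not tell to which gene the peak belongs. On the other side, chr9:78364718-78365214 had a fold of 6.34 (4.45 to 8.79) at 1969 bp from the lower end.

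Peaks at the Dppa5a gene itself were weaker. Summits 831 bp below the gene, inside it and 678 bp above it had folds of 4.40 (2.80 to 6.61), 3.36 (2.24 to 4.87) and 4.60 (2.99 to 6.81). The peak inside the gene, chr9:78367437-78368270, rested on a pileup of 26 over a background 1.76 times the genome-wide level, the highest of the 20 peaks. The outermost peaks had folds of 4.20 (2.64 to 6.37) at 7052 bp below the gene and 3.48 (2.14 to 5.39) at 9576 bp above it, the second in the body of Ooep. RefSeq lists the Dppa5 pseudogenes Dppa5b and Dppa5c on the same chromosome, and the sources used here do not say how reads that match several copies were placed. Neither pseudogene had a peak within 1 kb of its ends in either list. Within 50 kb Dppa5b had 1 Naive peak and no EpiLC peak, and Dppa5c had a peak in neither list. The nearest EpiLC peak to Dppa5a lay 113 kb away in Eef1a1, a translation elongation factor gene, with a fold of 4.83 (3.77 to 6.10), and it overlapped a Naive peak.

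Dppa2 and Dppa4 shared a single peak, nearer to Dppa2. This Naive peak, chr16:48309015-48309608, lay between the genes, with its summit 1124 bp from the lower-coordinate end of Dppa2 and 14.9 kb from the upper-coordinate end of Dppa4. Its fold was 4.20 (2.64 to 6.37), with 39.9% of Naive peaks lower, so it stood below the Naive median of 4.43. The nearest EpiLC peak was 177 kb from Dppa2 and 203 kb from Dppa4, in Morc1, with a fold of 2.39 (1.73 to 3.24), and it overlapped a Naive peak.

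**Figure D3:**
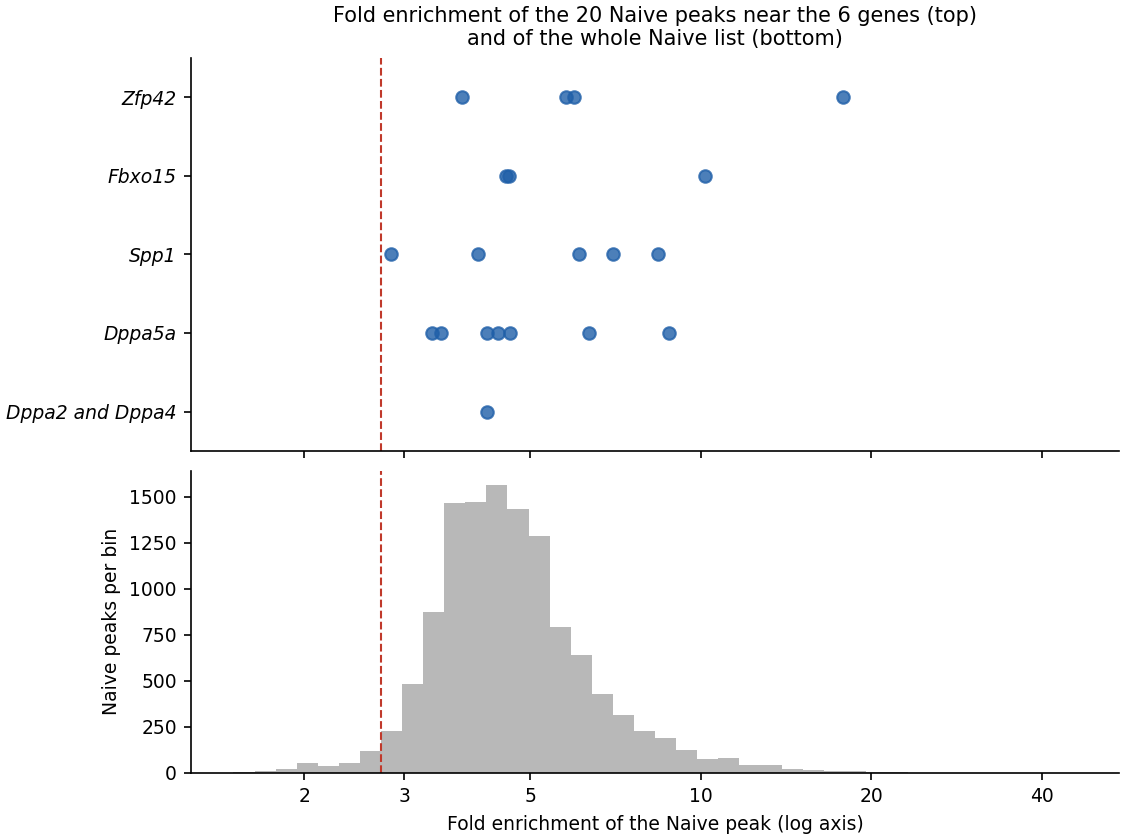
Fold enrichment on a log axis of the 20 Naive peaks by gene (top, 1 point a peak) and of all Naive peaks (bottom, peaks per bin); the dashed line is the EpiLC call limit of 2.73. The points run from 2.85 in Spp1 to 17.8 upstream of Zfp42, and all lie right of the line. The lowest callable fold at the Naive genome-wide background, 3.00, lies right of it too.

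As a set the 20 peaks were of ordinary strength in the Naive list. Their median fold was 4.60, beside 4.43 for all Naive peaks, and their median pileup 25 beside 24. They were wider, with a median of 476 bp beside 362 bp. A fold of at least 5 was reached by 9 of them (45.0%), beside 32.8% of the list. The background at the summit was above the genome-wide level for 10 of the 20, beside 70.9% of the list, and its highest ratio to that level was 1.76.

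A summit within 1 kb of either annotated end of a gene is called a gene-end peak. In EpiLC 0 of the 6 genes had one, where 5.61% of protein-coding genes did, and in Naive 4 of the 6 did, where 19.3% of protein-coding genes did. The 4 were Zfp42, Fbxo15, Spp1 and Dppa5a. Spp1 had 2 gene-end peaks and Dppa5a 3, and at least 2 were found at 2.14% of protein-coding genes. By the same distance 9 of the 20 member summits (45.0%) lay at the end of some protein-coding gene, beside 31.0% of all EpiLC and 31.7% of all Naive summits, and the other 11 lay away from gene ends.

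None of the 20 Naive peaks overlapped an EpiLC peak, which follows from the absence of EpiLC peaks within 50 kb and is no further result. In the whole Naive list 13.7% did, so most Naive peaks anywhere had no EpiLC counterpart. Sharing was more frequent among stronger Naive peaks, at 20.3% of those with a fold of at least 5 and 10.4% of those below. A fold at or above that of the peak upstream of Zfp42, this peak included, was reached by 25 Naive peaks. Of these, 15 overlapped an EpiLC peak (60.0%, a share whose spread is not known without replicate libraries). The Zfp42 peak was one of the 10 that did not, again because no EpiLC peak lay within 50 kb. The cut is this peak's own fold. At or above the fold of the strongest Fbxo15 peak, 10.2, the share was 32.5% (92 of 283).

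The EpiLC list gives no value for a place where no peak was called, so no EpiLC fold is known for these 20 sites. What it could have called was computed from its own lowest values. Reads recovered from the deposited folds and p-values put the genome-wide background at 7.43 reads for EpiLC and 4.004 reads for Naive, or 1.86 times as high. Read totals are not known, and this background also depends on the caller's settings and control. At that background a pileup of 22, a fold of 2.73, reached the lowest −log10 p in the EpiLC list, 5.16. The EpiLC background at the 20 sites is not known. Each peak's limit was therefore computed as if its Naive background, relative to the genome-wide level, held in EpiLC too. The median relative background was 1.66 over EpiLC peaks and 1.11 over Naive peaks, so this may not be so. These limits ran from 2.28 to 2.73, and the Naive folds of all 20 peaks were above them. At the Naive genome-wide background the lowest callable Naive fold was 3.00, so a peak called there passes the EpiLC limit by its call alone. The count of 20 thus follows largely from the Naive call and is no further result. For 14 of the 20 the lower bound of the interval was above the limit too. EpiLC folds were lower in general. At the 1689 EpiLC peaks that overlapped a Naive peak, the EpiLC fold was divided by the highest fold of the overlapping Naive peaks. This ratio had a median of 0.670 (quartiles 0.523 and 0.867). Scaled by that median, 15 of the 20 Naive folds stayed above 2.73, and scaled by the lower quartile, 9 did. These 2 counts use the limit at the genome-wide background for every peak. The counts of 20 and 14 use each peak's own limit, so the 2 pairs of counts are not on the same footing. The peak upstream of Zfp42 came to 11.9 and 9.30 on these 2 scales. The pairs behind the ratio were called in both lists, so they leave out places where the EpiLC fold was too low to be called, and the minimum width a caller asks of a peak was not modelled.

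A further 24 genes were taken here as genes of naive pluripotency, a label that was not checked by expression. Of the 24, 11 had an EpiLC peak within 50 kb, where 26.3% of all protein-coding genes did. The 11 include Dppa3 and Gdf3, which share 1 EpiLC peak. All 24 had a Naive peak, where 58.1% of all protein-coding genes did. Gene-end peaks were present at 3 of the 24 in EpiLC, beside 5.61% of all genes, and at 12 in Naive, beside 19.3%. Both lists thus held peaks near these genes at shares above the all-gene ones, a difference that was not tested. Like the 6 genes, 13 of the 24 had a Naive peak and no EpiLC peak within 50 kb, where 35.7% of all protein-coding genes did. The highest gene-end folds in EpiLC were those of Tbx3 (3.06), L1td1 (2.25) and Utf1 (2.21), and in Naive those of Gdf3 (5.06), L1td1 (4.85), Nanog (4.84) and Utf1 (4.83). Near these 24 genes lay 13 EpiLC and 102 Naive peaks, with a median Naive fold of 4.59. The median number of Naive peaks per gene was 4.5 for the 24 and 3.5 for the 6 genes. High Naive counts were thus not particular to the 6. Esrrb (8), Nanog (7) and Tfcp2l1 (7) had as many Naive peaks as Dppa5a or more, and no EpiLC peak. Peak density and spacing were not compared with those of the 24. Of 19 genes of primed pluripotency, 11 had an EpiLC peak within 50 kb, a share above the all-gene 26.3%, and 11 had a Naive peak, a share close to the all-gene 58.1%. Gene-end peaks stood at 6 of them in EpiLC, beside 5.61% of all genes, and 0 of them in Naive, beside 19.3%.

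**Figure D4:**
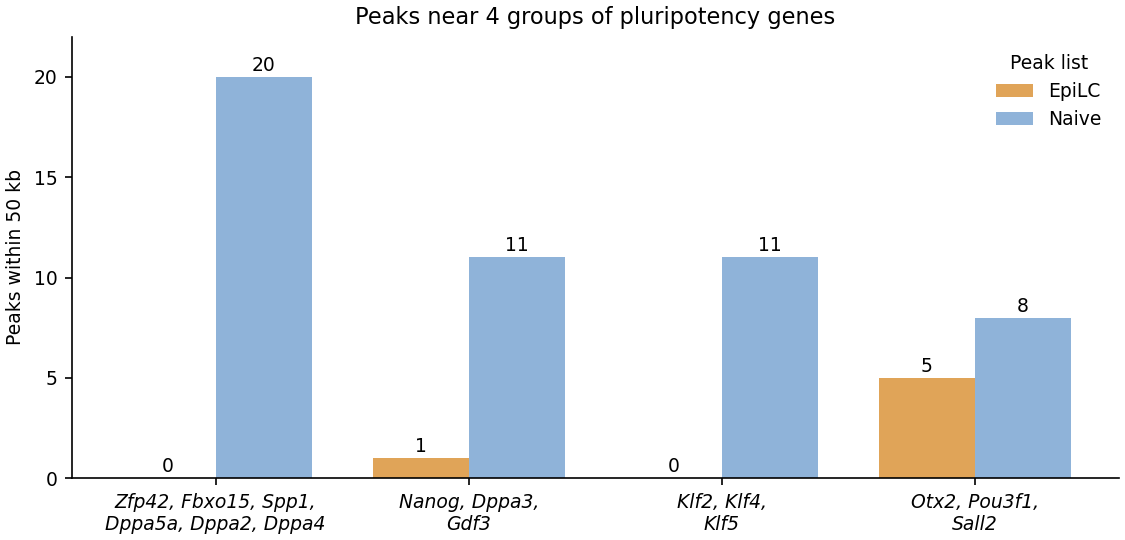
Number of peaks within 50 kb (vertical axis) of 4 groups of genes, each peak counted once per group, in the EpiLC list (left bar) and the Naive list (right bar). The 6 genes had 0 and 20, the Klf genes 0 and 11, the Nanog group 1 and 11, and the primed factors Otx2, Pou3f1 and Sall2 5 and 8.

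Compared with 3 smaller groups of like genes, the absence of EpiLC peaks was shared with Klf2, Klf4 and Klf5, which had 0 EpiLC and 11 Naive peaks within 50 kb. Nanog, Dppa3 and Gdf3, which lie in a common cluster, had 1 EpiLC and 11 Naive peaks. Otx2, Pou3f1 and Sall2, factors of the primed state, had 5 EpiLC and 8 Naive peaks. The median Naive fold was 4.60 for the 6 genes, 4.34 for the Klf genes, 4.69 for the Nanog group and 4.69 for the primed factors. These differences between groups were not tested.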

How the data were processed

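The authors deposited 1 peak list for each ChIP library, with nothing pooled. Per the submitters' processing notes, the tools were fastp, Bowtie2, Picard and MACS2 and the build GRCm38 (mm10), with no versions or roles, and the caller's control is not named in the sources used here. For each peak the authors deposited a fold enrichment (the ratio of summit pileup to the background the caller assumed), a −log10 p-value, a −log10 q-value (lowest 2.02 in both lists), a score and the offset of the summit within the peak. Per the labels, chromatin was sheared to around 500 bp. Read totals are not given here.

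Gene bodies came from the RefSeq gene table for GRCm38.p6, which has no strand, and strand from RefSeq's promoter table. All 6 genes were matched in the first and 2 in the second. With no genome of this build, the planned search of sequence under the peaks was made on those promoters. Pileup and background were solved from the fold, read as (pileup + 1) / (background + 1), and the Poisson p-value. For 100% of peaks in both lists, 1 whole-number pileup and no other matched the deposited −log10 p to 0.001. Overlap means at least 1 bp. The window counts, pileups and overlaps were tested on simulated data. Analyses used Python 3.11.15 with numpy 2.4.6, pandas 2.3.3 and scipy 1.17.1.

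The members and the gene lists were chosen with earlier results of these data known. By the rule for names, all 6 genes and every peak within 50 kb of them were described, genes holding a member peak or with an end within 1 kb of its summit were named, and at most the 4 highest gene-end folds were named per gene list. Genes nearest to EpiLC peaks were named after their values were seen. Other windows, thresholds, list lengths and overlap rules were tried as alternatives.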

Additional observations from a re-analysis of the deposited data

How the results depend on the processing

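The EpiLC counts were 0 peaks within 50 kb, 0 of these overlapping a Naive peak and 0 genes with a gene-end peak. Among their alternatives the window of 100 kb could have raised the first 2 and it again gave 0. The other alternatives look at part of the same peaks or genes and could return no other value, so their 0 says nothing about stability. The 20 Naive peaks became 18 within 20 kb, 21 within 100 kb and 16 where −log10 q had to reach 5. They fell to 9 at a fold of at least 5, to 9 with the Naive list shortened to the 3494 peaks of lowest p, and to 13 without Dppa5a, which these alternatives bring about by holding fewer peaks or genes. Leaving out a gene was chosen after seeing the data. The 4 genes with a Naive gene-end peak were 3 to 5 in number throughout. Nearest to the 50 kb threshold, the outermost member lay 46.9 kb from Zfp42 (fold 5.98) and the next Naive peak outside lay 95.5 kb from Fbxo15 (fold 3.40). The alternative that takes a transcript start in place of either gene end was not run, since strand was at hand for 2 of the 6 genes. No paired analysis was possible because each state had 1 ChIP library, and for the same reason no library could be left out.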

Other observations

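Genes that act with or downstream of the 6 were looked at in the same way. Of 14 genes known to depend on Dppa2 and Dppa4, most of them genes of the 2-cell-like state or the germ line, 1 had an EpiLC peak within 50 kb and 1 a Naive peak, beside 26.3% and 58.1% of all protein-coding genes. The EpiLC peak lay at an end of Duxf3, at a fold of 1.60 (1.34 to 1.88), in a gene with near-identical copies where the placing of reads is uncertain. The Naive peak, of fold 4.20, lay near the germ-line gene Ddx4. Zscan4c, Zscan4d, Zscan4f and Dazl had a peak in neither list at this distance.

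The next list held 10 genes, namely factors that act on Zfp42, with the ubiquitin ligase gene Rlim among them, Xist and Tsix, on which the Zfp42 protein is known to act, and general partners of F-box proteins. Of these, 3 had an EpiLC peak within 50 kb, close to the all-gene 26.3%, and 8 a Naive peak, beside 58.1%. The 8 include Nanog, Klf4 and Esrrb, already counted among the 24 genes above, so the 2 lists are not separate observations. They also include Xist and Tsix, which overlap and are non-coding, while the 58.1% is of protein-coding genes. Gene-end peaks were found at 2 of the 10 in EpiLC, beside 5.61% of all genes, and 4 of the 10 in Naive, beside 19.3%. Pou5f1, which encodes Oct4, had 1 EpiLC and 7 Naive peaks within 50 kb, with gene-end folds of 3.42 (2.55 to 4.48) and 5.12 (3.53 to 7.20). Sox2 had 3 EpiLC and 6 Naive peaks, with gene-end folds of 3.95 (2.94 to 5.22) and 4.32 (2.85 to 6.30). The overlapping antisense pair Xist and Tsix had 0 EpiLC and 3 Naive peaks, up to a fold of 7.99. Rlim and Cul1 had a peak in neither list at this distance.

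Of 11 relatives of the 6 by family or by position, 2 had an EpiLC peak within 50 kb and 4 a Naive peak, beside 26.3% and 58.1% of all genes. Dppa3 had 1 EpiLC and 4 Naive peaks and Dppa1 had 1 and 1. Ooep had 0 and 7, the 7 near Dppa5a described above, and Khdc3 had 0 and 2. The Zfp42 relatives Yy1 and Yy2 and the bone-matrix genes Ibsp, Mepe, Dmp1 and Dspp, from the same family as Spp1, had a peak in neither list at this distance.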
